A study of Homo sapiens with 2 samples.

Results

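The 10 genes described here are mucins and genes of secretory epithelial differentiation: AGR2, MUC5B, MUC1, MUC4, MUC16, MUC20, PSCA, TSPAN8, ADGRF1 and LMO4. They were taken by symbol from the 36601 genes of the count matrix and were chosen by their measured levels and co-detection in these cells, including the low AGR2 level of the populations HTO4+HTO8 and HTO4+HTO9. The levels below are therefore a description, given with counting error and no test. All 10 symbols were found.

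The cells were OVCAR5, an established human ovarian carcinoma line carrying a reporter of interferon gamma (IFNy) sensing, grown as tumours in immunodeficient NSG-B2m-/- mice. CFP+ tumour cells, called bystander cells in the labels, were sorted from a pool of 13 tumours that had been injected with cytokine or left unexposed. At 6 h the pool held 3 tumours given 10 ng/ml tumour necrosis factor alpha (TNFa), 2 given 100 ng/ml IFNy with 10 ng/ml TNFa, and 2 unexposed. At 24 h it held 2 given 100 ng/ml IFNy and 2 unexposed, and at 48 h 1 given 100 ng/ml IFNy and 1 unexposed. The treatment fields go against this list, since that of the gene expression library names cells left unstimulated in culture and that of the hashtag library TNFa at 6 h. All cells shared the cell line, the reporter and the host strain. Whether the line was 1 clone is not stated.

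Each tumour was stained with hashtags, which are antibodies that carry a sequence tag. Most cells bore 2 of them, and the pairs split the cells into 13 populations, each named by its pair. The labels do not tie the pairs to tumours. No injected tumour could therefore be compared with an unexposed one, and the populations are described beside each other. The matrix held 9083 barcodes with 64826985 gene UMIs (counted molecules). Limits of at least 500 genes and no more than 20% mitochondrial UMIs left 3611 cells, of which 2994 had a pair. Populations held 110 to 507 cells and 765923 to 5058403 UMIs, and the median cell had 8646 UMIs and 2842 genes. Median UMIs per cell were 7228 in HTO4+HTO8 and 6434.5 in HTO4+HTO9, against 7194 to 9450.0 in the other 11 populations. At least 3 of 10 epithelial markers were detected in 95.1% of the cells, and 3 or more macrophage markers in 26 cells. Fibroblast markers were detected so in 2 cells and endothelial or T cell markers in 0, which allows up to 0.123% of cells. All of these are human genes, so the counts do not bound cells of the mouse host.

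Mucins are large glycoproteins that coat epithelia. Gel-forming mucins such as MUC5B are secreted as disulphide-linked polymers, while MUC1, MUC4 and MUC16 are anchored in the membrane and carry a heavily glycosylated ectodomain at the cell surface. AGR2 is a protein disulphide isomerase of the endoplasmic reticulum that mucus-producing cells need to fold secreted mucins. MUC16 carries the epitope measured as CA125 in ovarian cancer. PSCA is a lipid-anchored surface protein and TSPAN8 a tetraspanin of the surface membrane, both found in several carcinomas.

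RefSeq promoters (GRCh38.p14) were found for 7 of the 10 genes. Those of AGR2 and TSPAN8, the pair with the highest odds ratio of being found in the same cell, and of MUC4, which was highest in the 2 populations where AGR2 was lowest, are shown here. Each is the 250 bases before the annotated start, on the gene's strand, which is the minus strand for all 3. They lie at chr7:16805000-16805249, chr12:71158000-71158249 (the first of 2 starts listed) and chr3:195811930-195812179. The RefSeq starts of all 3 lie inside the longer spans that GENCODE gives these genes. Capitals mark the only matches to the motifs searched.
AGR2: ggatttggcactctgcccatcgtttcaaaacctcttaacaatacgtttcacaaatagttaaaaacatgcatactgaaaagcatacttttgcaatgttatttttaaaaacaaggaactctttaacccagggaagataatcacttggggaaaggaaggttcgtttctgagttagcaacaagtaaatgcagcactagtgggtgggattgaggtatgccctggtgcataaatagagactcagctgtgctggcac
TSPAN8: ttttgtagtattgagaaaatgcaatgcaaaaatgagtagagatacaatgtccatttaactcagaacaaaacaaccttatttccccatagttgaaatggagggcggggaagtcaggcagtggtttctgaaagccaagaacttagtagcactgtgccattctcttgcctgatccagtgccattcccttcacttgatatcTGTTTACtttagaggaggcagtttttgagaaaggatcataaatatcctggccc
MUC4: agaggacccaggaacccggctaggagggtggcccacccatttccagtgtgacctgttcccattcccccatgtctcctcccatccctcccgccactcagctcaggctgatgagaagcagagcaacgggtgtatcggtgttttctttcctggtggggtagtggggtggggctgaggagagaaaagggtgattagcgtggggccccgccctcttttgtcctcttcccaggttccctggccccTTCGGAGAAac

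Both strands were searched for the STAT element GAS (TTCNNNGAA), an NF-kB element (GGG, any 2 bases, TTTCC), an interferon response core (TTTC, any 2 bases, TTTC), a FOXA element (TGTTTAC) and the TATA element (TATAAA). The TSPAN8 promoter held the FOXA letters at bases -53 to -47 from the start, and the MUC4 promoter held the GAS letters at -11 to -3. Of 27305 promoters of the same length, 2.98% held the FOXA letters, 6.78% the GAS letters, 1.73% the NF-kB letters, 3.07% the interferon response core and 11.1% the TATA element. The AGR2 promoter held none of the 5. Of the other promoters found, that of MUC1 held the TATA element at -24 to -19, and those of MUC16, ADGRF1 and LMO4 held none. A match is a description of these letters and not a binding site. GC content was 40.4% for AGR2, 40.8% for TSPAN8 and 60.4% for MUC4, beside a median of 58% over all promoters.

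Across populations, 9 of the 10 genes differed at least 2-fold between the highest and the lowest population by the lower 95% bound of the ratio. Among the 13596 genes with 30 UMIs or more, 11.6% did so, and 12% of those with 300 UMIs or more. The median ratio was 7.72 over the 10 genes and 2.68 over all genes. The 10 genes were chosen partly for such differences, so nothing is read from the count. The bounds hold counting error only. The uneven spread of UMIs over cells is not in them, which makes them too narrow.

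**Figure D1:**
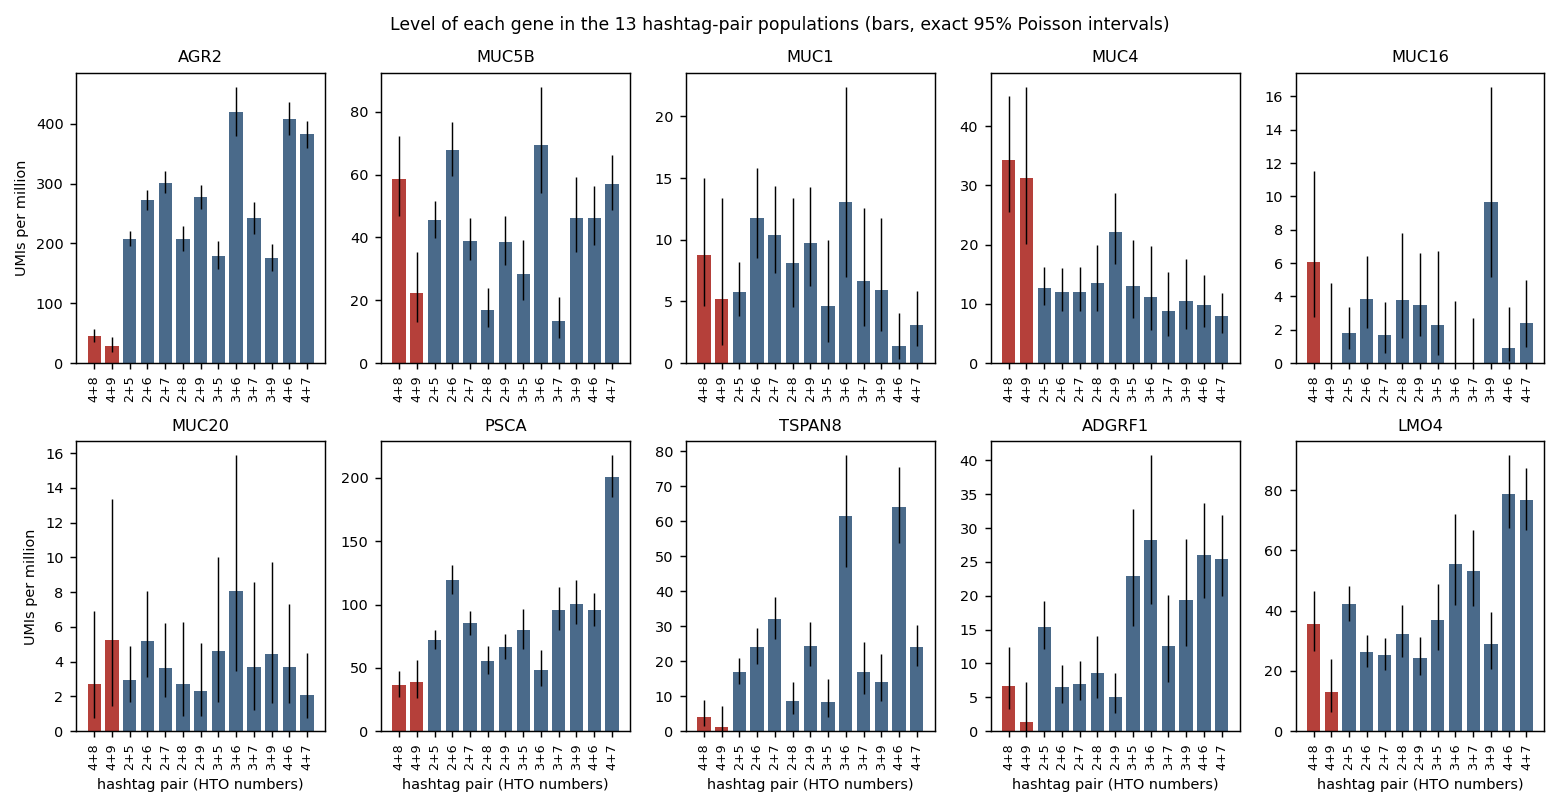
Level of each gene (UMIs per 1000000, linear axes that differ between panels) in the 13 populations, with HTO4+HTO8 and HTO4+HTO9 in red. Bars are pooled levels and lines are exact 95% Poisson intervals of counting error; AGR2, PSCA and TSPAN8 were lowest in the 2 red populations and MUC4 was highest there.

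AGR2 (ENSG00000106541, chr7:16791811-16833433, minus strand, GRCh38, GENCODE 29, between TSPAN13 and its paralog AGR3) had the most UMIs of the 10 genes, 7515. Its level, in UMIs per 1000000 gene UMIs of a population (CPM), was 45.1 in HTO4+HTO8 and 28.7 in HTO4+HTO9, with exact Poisson intervals of 35.0 to 57.3 and 18.0 to 43.5. In the other 11 populations it ran from 176 in HTO3+HTO9 over a median of 272 to 419 in HTO3+HTO6. The 2 low populations thus lay apart from all others, and pooled they were at 0.145 times the median of the other 11. That value was 0.263 with a filter of 1000 genes and 10% mitochondrial UMIs, 0.236 with 50% allowed and 0.249 without a filter. The top 3 were HTO3+HTO6, HTO4+HTO6 at 408 and HTO4+HTO7 at 382, and their intervals overlapped. The ratio of HTO3+HTO6 to HTO4+HTO9 was 14.6, with an interval of 9.51 to 23.5. That of highest to lowest was 37.3 with the stricter cell filter, where HTO2+HTO8 was highest at 1156 CPM. Without a filter it was 8.38, and HTO4+HTO6 was highest at 377 CPM.

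The low AGR2 level showed both in fewer cells with the transcript and in fewer molecules per positive cell. After each cell was thinned to 4000 UMIs, which 2808 cells allowed, 10.2% of the cells of HTO4+HTO8 and 6.67% of HTO4+HTO9 had an AGR2 UMI, against 25.5% to 37.0% in the other populations. Unthinned shares were 17.3% and 10.9%, against 34.7% to 53.2%. Positive cells averaged 1.47 and 1.67 AGR2 UMIs, against 2.29 to 5.06. Cells with 5 or more AGR2 UMIs made up 2.79% to 9.52% of the other populations and were 0 of 167 in HTO4+HTO8 and 0 of 90 in HTO4+HTO9, where 3 cells would be 1.80% and 3.33%. HTO3+HTO6 had the highest level with an ordinary share of positive cells, 29.5%, and the most molecules per positive cell, 5.06.

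**Figure D2:**
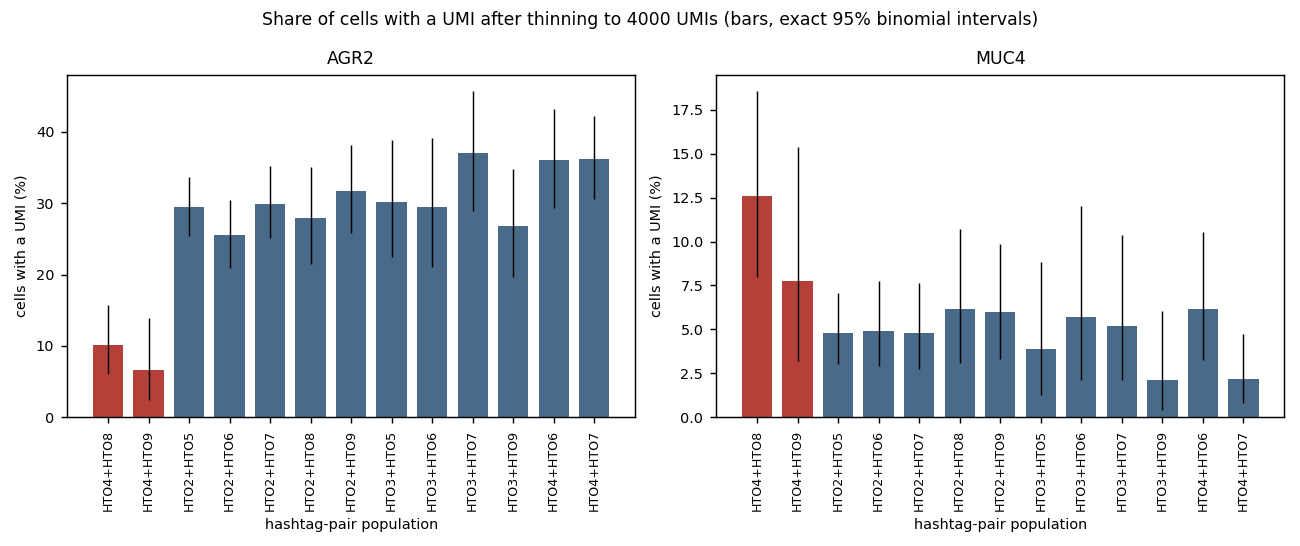
Share of cells (%) with a UMI of AGR2 and of MUC4 after thinning to 4000 UMIs per cell, by population, with exact 95% binomial intervals; HTO4+HTO8 and HTO4+HTO9 are in red. AGR2 was found in 10.2% and 6.67% of their cells, against 25.5% to 37.0% elsewhere, and MUC4 in 12.6% and 7.78%, against 2.11% to 6.19%.

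AGR2 transcripts were unevenly spread over cells. The 30 cells with most AGR2 held 29.02% of its UMIs, the highest cell had 153, and 60.6% of cells had none. All populations were in 1 droplet library and shared any free RNA, and how much of the 6.67% of HTO4+HTO9 (6 of 90 cells, interval 2.49% to 13.9%) came from it was not tested. The human markers found no sizeable class of cells that should lack the gene. Among the 26 cells with 3 or more macrophage markers, with a median of 10798 UMIs, 12 had AGR2.

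MUC5B (ENSG00000117983, chr11:1223066-1262172, plus strand, next to MUC5AC), the gel-forming mucin of airway and cervical mucus, did not have the order of AGR2. Its level was 58.6 CPM in HTO4+HTO8 and 22.2 CPM in HTO4+HTO9, and the other populations ran from 13.3 in HTO3+HTO7 to 69.5 in HTO3+HTO6. HTO4+HTO8 was therefore among the higher populations and HTO4+HTO9 among the lower. The ratio of highest to lowest was 5.24, with an interval of 3.09 to 9.36. MUC5B UMIs lay in few cells: 30 cells held 46.0% of them, 1 cell held 54, and 11.3% of cells had any.

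The membrane mucins had few UMIs, and among them MUC4 was highest in the 2 populations where AGR2 was lowest. MUC4 (ENSG00000145113, chr3:195746765-195812277, minus strand), which can pair with the receptor ERBB2, had 34.4 CPM in HTO4+HTO8 and 31.3 CPM in HTO4+HTO9. The others ran from 7.90 in HTO4+HTO7 over a median of 11.997 to 22.1 in HTO2+HTO9. The 2 populations thus lay above all others, although the intervals of HTO4+HTO8 (25.6 to 45.2) and HTO4+HTO9 (20.1 to 46.6) both overlapped that of HTO2+HTO9 (16.7 to 28.7). Thinned, 12.6% and 7.78% (7 of 90) of their cells had MUC4, against 2.11% to 6.19%. The intervals of these 2 shares, 7.96% to 18.6% and 3.18% to 15.4%, both overlapped that of HTO2+HTO8, 3.11% to 10.7%. No cell had more than 4 MUC4 UMIs, so the transcript was spread thinly rather than held by rich cells.

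MUC20 (chr3:195720882-195741123, plus strand) is the neighbour of MUC4, and its levels were 2.06 to 8.06 CPM from 105 UMIs. Its ratio of highest to lowest, 3.91, had an interval of 1.19 to 13.7, so MUC20 was the gene that did not pass. MUC1 (chr1:155185824-155192916, minus strand) had 8.76 CPM in HTO4+HTO8 and 5.22 CPM in HTO4+HTO9, within the 1.39 to 13.1 CPM of the other populations. Its lowest populations were HTO4+HTO6 and HTO4+HTO7, where AGR2 was among the highest. These levels rest on 3 and 9 UMIs, and their intervals, 0.287 to 4.07 and 1.41 to 5.87 CPM, overlapped those of other populations. MUC16 (chr19:8848844-8981342, minus strand) had 79 UMIs in all and 0 in 3 populations, HTO4+HTO9, HTO3+HTO6 and HTO3+HTO7, which allows up to 4.82, 3.72 and 2.72 CPM there. Its highest level, 9.68 CPM in HTO3+HTO9, was 3.20 times that of HTO3+HTO6 taken at a floor of 3 counts. The ratio to the counted 0 had a lower 95% bound of 2.25. The level of HTO3+HTO9 came from 13 UMIs in 5 cells, and 30 cells held 65.8% of all MUC16 UMIs. Without the 5 cells richest in MUC16 in each population, an alternative chosen after seeing the data, the highest was 2.78 CPM in HTO4+HTO8.

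The surface proteins PSCA and TSPAN8 were low where AGR2 was low. PSCA (ENSG00000167653, chromosome 8) had 36.4 CPM in HTO4+HTO8 and 39.2 CPM in HTO4+HTO9, against a range of 48.3 in HTO3+HTO6 to 201 in HTO4+HTO7 with a median of 85.1. Unlike AGR2, PSCA was low in HTO3+HTO6, and its intervals there and in the 2 low populations overlapped. TSPAN8 (ENSG00000127324, chr12:71125085-71441898, minus strand) had 4.04 CPM in HTO4+HTO8 and 1.31 CPM, from 1 UMI, in HTO4+HTO9, against a range of 8.42 in HTO3+HTO5 to 64.0 in HTO4+HTO6. The 2 populations rich in TSPAN8, HTO4+HTO6 and HTO3+HTO6 at 61.4 CPM, were also the 2 highest in AGR2. Their shares of cells with TSPAN8, 11.4% and 8.87%, were close to 9.35% in HTO4+HTO7 and 9.09% in HTO2+HTO7. The 61 UMIs of HTO3+HTO6 lay in 11 cells. Without the 5 richest cells of each population, an alternative chosen after seeing the data, the highest TSPAN8 level was 15.9 CPM. AGR2 was then highest in HTO4+HTO6. In TSPAN8, 30 cells held 54.2% of the UMIs.

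ADGRF1 (chr6:46997703-47042363, minus strand), an adhesion G protein-coupled receptor, had 6.74 CPM in HTO4+HTO8 and 1.31 CPM in HTO4+HTO9, against 5.04 in HTO2+HTO9 to 28.2 in HTO3+HTO6. Among the others, the populations with HTO2 had 5.04 to 15.4 CPM and the rest had 12.5 to 28.2 CPM, ranges that overlapped. LMO4 (chr1:87328468-87348923, plus strand), a LIM-only cofactor of transcription in epithelia, had 35.7 CPM in HTO4+HTO8 and 13.1 CPM in HTO4+HTO9. Its highest levels were 78.8 CPM in HTO4+HTO6 and 76.6 CPM in HTO4+HTO7, and the rest ran from 24.4 to 55.4 CPM.

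In total 3 of the 10 genes, AGR2, PSCA and TSPAN8, were below all other populations in both HTO4+HTO8 and HTO4+HTO9, as were 5.91% of all genes. MUC4 was above all others in both, as were 4.79% of genes. In the 400 cells left by a filter of 1000 genes and 10% mitochondrial UMIs none of these 4 genes kept that place, and PSCA lost it when the 5 cells richest in it were left out of each population. The AGR2 level was part of how the genes were chosen, so nothing is read from these counts. The same 2 populations stood apart in genes of other kinds too. Of 8 listed hypoxia genes, 2 were above all others in both, beside 4.79% of all genes. These were ADM at 96.3 and 99.2 CPM, against 17.0 to 55.9 CPM, and ANKRD37 at 18.9 and 18.3 CPM, against 1.01 to 10.4 CPM. Of 8 listed interferon genes, 3 were above all others in both, among them 2 of antigen presentation with class II molecules. CD74, the invariant chain of class II molecules, was at 2444 and 2663 CPM there, against 75.04 to 1088 CPM elsewhere, and HLA-DRA was at 761 and 839.5 CPM, against 5.89 to 287 CPM. CXCL10, an interferon-induced chemokine, was instead highest in HTO2+HTO9 at 6480.1 CPM and HTO2+HTO8 at 6086 CPM, where AGR2 was at 277 and 208 CPM, within the range of the other populations. With all cells thinned to 4000 UMIs, AGR2 was at 37.4 CPM in HTO4+HTO8 and 27.8 CPM in HTO4+HTO9, against 153 to 374 CPM elsewhere. The part of CD74, of the hypoxia genes and of the lower UMIs per cell in the low AGR2 level was not tested.

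**Figure D3:**
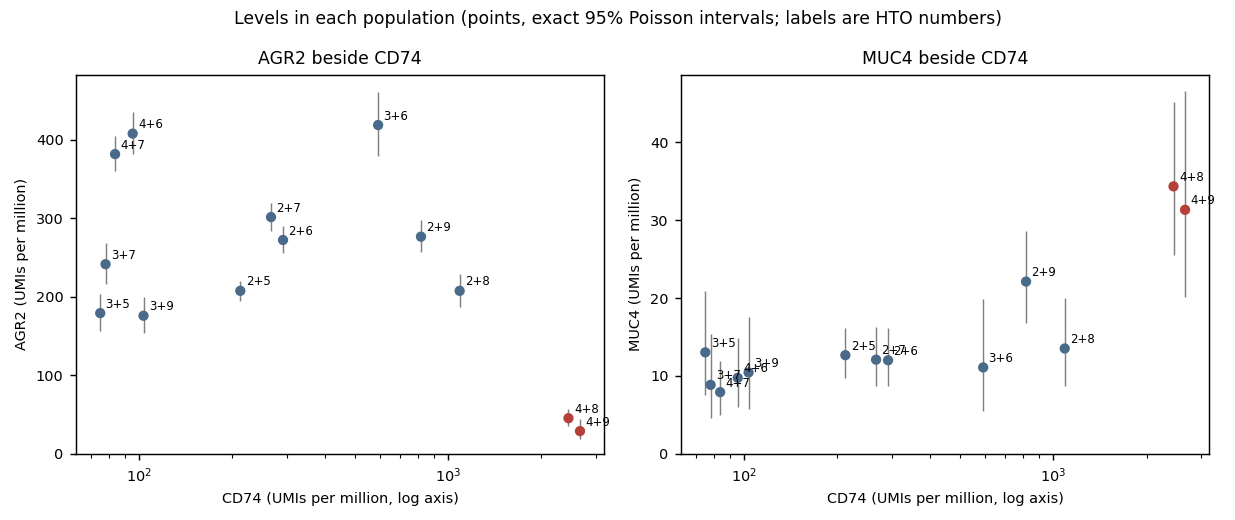
Levels of AGR2 and MUC4 (UMIs per 1000000) against CD74 (UMIs per 1000000, log axis) in the 13 populations, with exact 95% Poisson intervals. HTO4+HTO8 and HTO4+HTO9 (red) had CD74 at 2444 and 2663 CPM with the lowest AGR2 and the highest MUC4, while AGR2 ranged from 176 to 419 CPM over the other CD74 levels.

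Within populations, AGR2, TSPAN8, MUC5B, PSCA and LMO4 were found in the same cells more often than their frequencies give. Co-detection was measured as the Mantel-Haenszel odds ratio of a UMI of both genes, with populations as strata and cells thinned to 4000 UMIs, so that neither levels between populations nor depth enter it. Of the 15 pairs among the 6 genes found in 5% or more of cells, 9 had an odds ratio of 2 or more, with a median of 2.36. Over all 24812482 pairs of genes found in 5% to 95% of cells, 0.159% did, with a median of 1.01, and 0.482% had an odds ratio of 0.5 or less. For each of the 10 genes the share of all other genes with an odds ratio of 2 or more was 0.312% with AGR2, 0.312% with PSCA, 1.58% with TSPAN8, 0.738% with MUC5B, 0.17% with LMO4 and 0.795% with ADGRF1. It was 0.61% with MUC4, 2.26% with MUC1, 6.46% with MUC20 and 10.7% with MUC16, the scarcest genes having the most. The genes were chosen with such values in view, and cells of 1 library are not replicates of a condition. Multiplets within a population carry a single pair, and their part in co-detection was not tested.

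**Figure D4:**
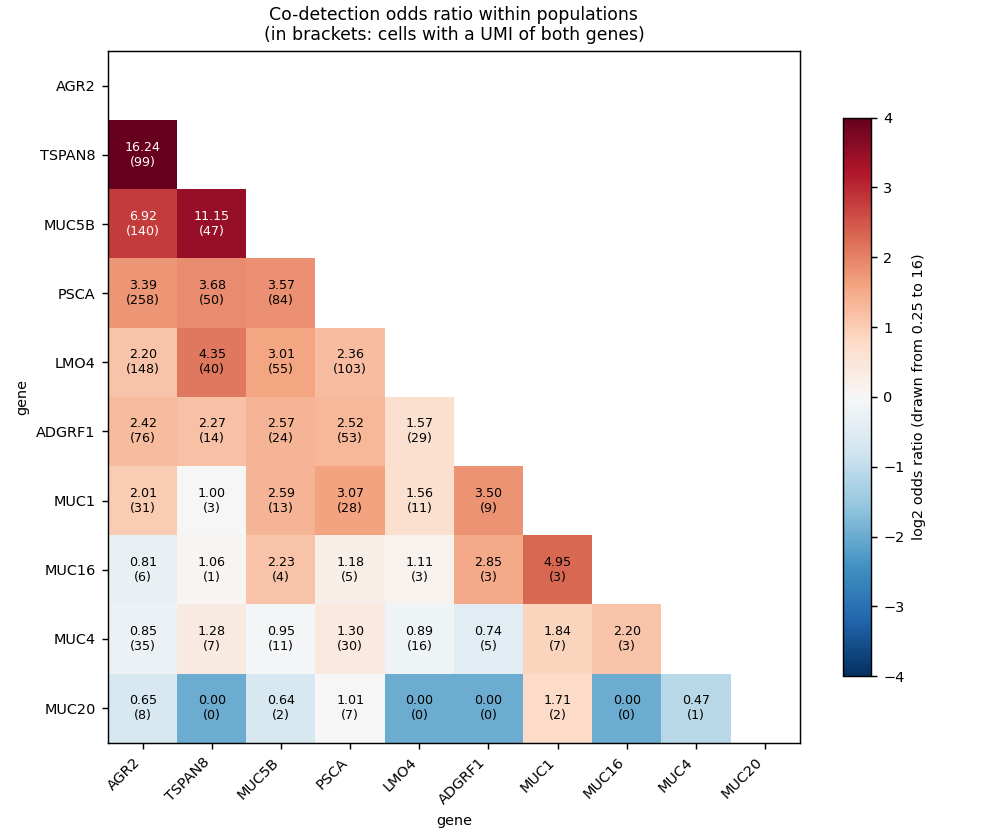
Odds ratio of co-detection for each pair of genes within populations (colour, log2 scale drawn from 0.25 to 16), with the number of cells that had both genes in brackets. AGR2, TSPAN8, MUC5B, PSCA and LMO4 form a block of odds ratios from 2.20 to 16.2, while MUC4 and MUC20 lie outside it.

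The highest odds ratio of the 45 pairs was that of AGR2 with TSPAN8, 16.2. Of 116 cells with TSPAN8, 99 (85.3%) also had AGR2, where 35.8 were expected, and the excess was seen in 11 of 12 populations. TSPAN8 was found in 4.13% of the thinned cells, just under the detection minimum, so its pairs stand outside the count above. TSPAN8 and MUC5B had an odds ratio of 11.1 from 47 shared cells where 8.63 were expected. AGR2 and MUC5B had one of 6.92: 66.4% of 211 MUC5B cells had AGR2, with an excess in 12 of 13 populations. AGR2, TSPAN8 and MUC5B were all present in 45 cells, where 2.63 would be expected if they were independent within populations. These cells came from 11 populations, with 0 in HTO4+HTO8 and in HTO4+HTO9, where only 0.0219 and 0 were expected.

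PSCA shared cells with AGR2 at an odds ratio of 3.39 (258 cells, 148 expected), with MUC5B at 3.57 and with TSPAN8 at 3.68. LMO4 did so with TSPAN8 at 4.35, with MUC5B at 3.01 and an excess in 13 of 13 populations, with PSCA at 2.36 and with AGR2 at 2.20. ADGRF1 had odds ratios of 2.42 with AGR2, 2.52 with PSCA and 2.57 with MUC5B, but that with AGR2 was 0.424 when 2 UMIs or more of a gene were required. MUC1 was found with PSCA at 3.07 from 28 cells and with AGR2 at 2.01 from 31 cells.

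MUC4 had odds ratios nearer to 1 with these genes, 0.85 with AGR2, 0.95 with MUC5B, 0.89 with LMO4 and 1.30 with PSCA. MUC20, in 39 cells, shared 8 of them with AGR2 where 10.99 were expected, and 0 with TSPAN8, LMO4, ADGRF1 or MUC16, where at most 4.35 were expected. MUC16, in 26 cells, shared 6 with AGR2 where 7.004 were expected and 4 with MUC5B where 2.03 were, an odds ratio of 2.23. Counts this small cannot show an absence.

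Most cells had few of the 10 genes, and a small number had many. At 4000 UMIs per cell, 1360 cells (48.4%) had none, where 1108 would be expected if the genes were independent within populations. There were 64 cells with 4 of the genes, 21 with 5 and 6 with 6, where 12.3, 0.930 and 0.0424 would be expected.

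The shares of cells with MUC5B, TSPAN8, PSCA and LMO4 were higher in cells with more AGR2 molecules. MUC5B was found in 3.54% of the 2004 cells with no AGR2 UMI, 9.76% of the 369 with 1, 16.5% of the 297 with 2 to 4 and 39.9% of the 138 with 5 or more. TSPAN8 ran over the same classes at 0.848%, 2.71%, 13.1% and 36.2%, and PSCA at 12.03%, 19.0%, 41.1% and 47.8%. LMO4 was level between the first 2 classes, at 9.13% and 10.3%, and reached 18.5% and 39.9% in the next. MUC4 had 5.64%, 4.34%, 4.71% and 3.62%, with overlapping intervals. MUC16 had 0.998%, 1.08%, 0.337% and 0.725%, and MUC20 had 1.55%, 1.63%, 0.337% and 0.725%. Median UMIs per cell before thinning were 10875.5 in the highest class and 8785.5 in cells without AGR2, and median mitochondrial shares were 15.5% and 15.0%. These classes pool populations, and HTO4+HTO8 and HTO4+HTO9 gave no cell to the highest.

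**Figure D5:**
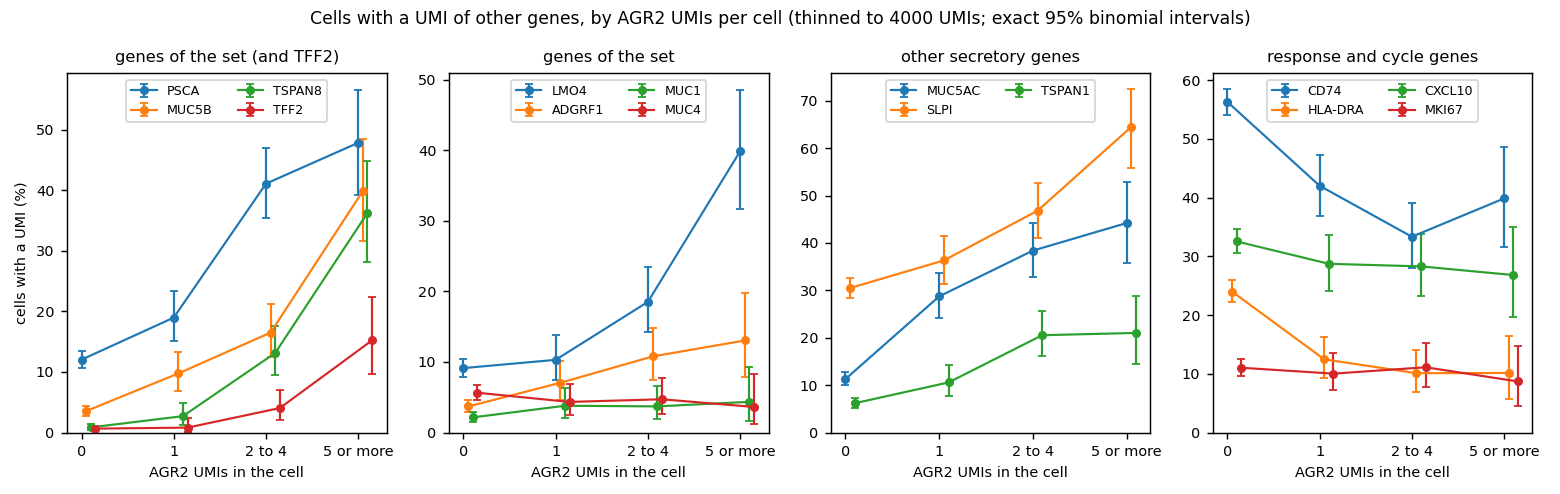
Share of cells (%) with a UMI of each gene, by AGR2 UMIs in the cell (0, 1, 2 to 4, 5 or more; cells thinned to 4000 UMIs; exact 95% binomial intervals). PSCA, MUC5B, TSPAN8, TFF2, LMO4, MUC5AC and SLPI were found in more of the AGR2-rich cells, MUC4 and MKI67 were about level, and HLA-DRA and CD74 were found in fewer.

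Genes most like each of the 10 were sought by correlation over cells, with log counts centred on populations, as a description over 2808 cells of 1 library. Those nearest AGR2 were MUC5B (r = 0.37), KRT19, a simple epithelial keratin (0.36), and PSCA (0.33). TSPAN8 was nearest to AGR2 (0.41), MUC5B (0.29) and GPX2, a glutathione peroxidase of gut epithelium (0.28). MUC5B also lay near LCN2, the siderophore-binding lipocalin (0.29), and MUC5AC, the gel-forming mucin of stomach and airway (0.28). PSCA lay near RARRES1 (0.24) and SLPI, a secreted protease inhibitor (0.24), and LMO4 near AGR2 (0.23), PSCA (0.17) and ANXA4 (0.15). MUC4 had MX1 and TNFSF10, both interferon-induced genes, as its nearest, but at 0.11 each. For MUC1, MUC16, MUC20 and ADGRF1 the highest correlation was 0.14.

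Other mucins and secretory genes were read from lists, chosen with earlier results known, whose counts stand beside the 11.6% of all genes that passed. Of 15 other mucins, 4 had 30 UMIs or more, and 3 of these passed between populations: MUC5AC, MUC13 and MUC2. MUC2 passed on few cells, with 35 UMIs in 5 cells of HTO2+HTO6 and 14 in 3 cells of HTO2+HTO9. MUC13 passed on 12 UMIs in HTO3+HTO6 against 1 in HTO3+HTO7. MUC5AC, with 2304 UMIs, had 45.8 CPM over the 2 low-AGR2 populations, against 66.6 to 123 CPM elsewhere, and was found with AGR2 at an odds ratio of 4.17 and with MUC5B at 5.46. MUC13, found before thinning in 0.719% (HTO3+HTO7) to 7.26% (HTO3+HTO6) of the cells of a population, reached 7.92 with MUC5B. Of the 4 measured mucins, 2 were below all others in both low-AGR2 populations, beside 5.91% of all genes. Of 24 genes of secretory differentiation, 19 were measured and 10 passed, against 11.6% of all genes; the 4 with most UMIs were LCN2, SLPI, WFDC2 and TSPAN1. SLPI was at 45.8 CPM in the 2 low-AGR2 populations together, against 112 to 403 CPM elsewhere, and TFF2, a trefoil peptide of gastric mucus, was at 0.889 CPM, against 4.47 to 37.9 CPM. Of the 19, 3 were below all others in both of these populations, beside 5.91% of all genes. TFF2 was found with TSPAN8 at an odds ratio of 18.6, with MUC5B at 9.81 and with AGR2 at 7.22. TFF2 was under the 5% detection minimum, in 13 of the 2004 cells without AGR2 and 21 of the 138 with 5 or more AGR2 UMIs. These odds ratios thus rest on few cells. CREB3L1, a membrane-bound factor of secretory cells, reached 6.19 with LMO4. Shared cells were not counted for this pair or for MUC13 with MUC5B, so both values may rest on few cells. SPDEF, a goblet cell factor, had 67 UMIs and TFF3 had 29, and only 11 cells had 3 or more of 6 goblet markers.

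Genes that act on mucins were read in the same way. Of 19 measured genes of mucin-type O-glycosylation, 3 passed, ST3GAL1, GALNT4 and GALNT5, beside 11.6% of all genes, and the list's median ratio of 2.81 was near the 2.68 of all genes. In both low-AGR2 populations 3 of the 19 were below all others and 0 above, beside 5.91% and 4.79% of all genes. GALNT3, which starts O-glycan chains, did not pass but was found with AGR2 at an odds ratio of 4.86, and ST6GALNAC1, which caps them, at 3.82. Of 22 genes of endoplasmic reticulum folding, the compartment in which AGR2 works, only SDF2L1 passed, and the median ratio of the list was 1.55, below the 2.68 of all genes. In both low-AGR2 populations 3 of the 22 were below all others, as were 5.91% of all genes. Only PDIA3, the disulphide isomerase of the class I loading complex, was above all others in both, as were 4.79% of all genes. It was at 773 CPM in the 2 together, against 418 to 592 CPM. Of 14 measured tetraspanins 4 passed: CD9, CD82, TSPAN1 and TSPAN13, the neighbour of AGR2, beside 11.6% of all genes. Of the 14, 3 were below all other populations in both HTO4+HTO8 and HTO4+HTO9, as were 5.91% of all genes. Of these, CD9 and TSPAN13 were lowest in the 2 low-AGR2 populations, at 128 CPM against 225 to 382 CPM, and at 10.7 CPM against 15.1 to 30.1 CPM. Of 6 measured partners of LMO4, 4 passed (RBBP8, SSBP3, LMO2 and SSBP2), again beside 11.6%. Of 11 measured surface antigens of ovarian carcinoma 4 passed, among them LY6E, WFDC2 and LYPD1, beside the same 11.6%. LY6E, an interferon-induced gene, was at 3184 CPM in the 2 low-AGR2 populations together, against 1391 to 2699 CPM elsewhere. Of the 11, 2 were below all others in both of these populations and 1 above, beside 5.91% and 4.79% of all genes.

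Within populations, AGR2 was found less often in cells with class II genes: its odds ratio was 0.49 with HLA-DRA and 0.53 with CD74. HLA-DRA was found in 10.1% of cells with 5 or more AGR2 UMIs and in 24.0% of cells without AGR2, and CD74 in 39.9% and 56.3%. These 2 shares pool populations, while the odds ratios do not. CXCL10 (0.86) and the cell cycle gene MKI67 (0.87) were closer to 1, and NDRG1, a hypoxia-induced gene, had 0.65. NDRG1 was found in 1.45% of cells with 5 or more AGR2 UMIs and in 11.5% of cells without AGR2, shares that also pool populations. MUC4 had odds ratios of 1.72 with HLA-DRA, 2.01 with the interferon-induced enzyme IDO1 and 0.97 with CD74.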

How the data were processed

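The authors deposited raw UMI counts of genes and 10 hashtags for 1 pooled library. Per the file headers the software was Cell Ranger 5.0.1, whereas version 2.1.1 and the build GRCh38 stand in the submitters' processing notes. No source used here names the upstream annotation, and coordinates are from GENCODE 29.

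A cell was given to the pair of its 2 highest hashtags of HTO2 to HTO9 where the second had 20 counts or more and at least 4 times the third; 617 passing cells had no pair, and multiplets of 1 population remain. Counts were summed per population as UMIs per 1000000 (CPM) with exact 95% intervals of counting error (Poisson for levels, Clopper-Pearson for shares, conditional on the sum for ratios). A gene needed 30 UMIs and a lower bound of 2 to pass. Co-detection used cells thinned to 4000 UMIs, leaving out 186 shallower cells. Reads of near-identical mucin copies and of overlapping genes are uncertain. Levels are not compared between genes, since only transcript ends were counted.

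The 10 genes and the lists were chosen with earlier results of these data known. All 10 were named, with their 3 best correlated genes, up to 4 passing genes per list with most UMIs, and a set of context genes. Others named (MUC13 and MUC2 apart) came from list values after these were seen: TFF2, CREB3L1, GALNT3, ST6GALNAC1, SPDEF, TFF3, PDIA3, HLA-DRA and IDO1. The single-gene result of 1 listed gene is left out here. Scripts were tested on simulated data. Alternatives covered the cell filter, the hashtag rule, scaling, thinning and detection. Computations used numpy 2.4.6, pandas 2.3.3 and scipy 1.17.1 in Python 3.11.15, and figures matplotlib 3.10.9. Columns of other samples numbered 0.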

Additional observations from a re-analysis of the deposited data

How the results depend on the processing

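No paired analysis was possible because the series is 1 pooled library whose hashtag pairs are not mapped to tumours. The number of genes that passed between populations was 5 of 7 measured, against 9 of 10, with a filter of 1000 genes and 10% mitochondrial UMIs, which left 400 cells. The AGR2 ratio of highest to lowest population, 14.6, was 37.3 with that filter, 8.54 with 50% mitochondrial UMIs allowed and 8.38 without a filter. The highest population changed from HTO3+HTO6 to HTO2+HTO8 with the first of these and to HTO4+HTO6 with the others. AGR2 in HTO4+HTO8 and HTO4+HTO9 over the median of the others, 0.145, was 0.263, 0.236 and 0.249 under the same filters and 0.187 as a mean over cells. With the strictest filter AGR2, PSCA, TSPAN8 and MUC4 no longer lay outside the other populations in both. PSCA also did not once the 5 cells with most of its UMIs were dropped from each population, an alternative chosen after seeing the data. Member pairs with an odds ratio of 2 or more, 9 of 15, numbered 3 of 6 with the strictest filter, 17 of 28 without thinning, 3 of 3 thinned to 2000 UMIs, 1 of 1 with 2 UMIs or more required, and 18 of 36 with a detection minimum of 1%, the last chosen after seeing the data; leaving out each population gave 9 to 10. The odds ratio of AGR2 with ADGRF1, 2.42, was 0.424 with 2 UMIs or more required; the cause was not tested. Those of AGR2 with TSPAN8 ran from 10.3 to 37.4 over 22 alternatives and with MUC5B from 5.74 to 13.6 over 21. ADGRF1 lay below the other populations in both HTO4+HTO8 and HTO4+HTO9 when cells were thinned or the 5 richest cells dropped.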
